A study of Mus musculus with 36 samples.

Results

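The genes described here are 10 immediate early transcription regulators, Egr1, Egr2, Egr3, Fos, Fosb, Jun, Junb, Atf3, Nr4a1 and Ier2, out of 19938 genes measured in sorted mouse macrophages and monocytes. They were chosen by name, as well-known members of the early response and with earlier results of these data known, and each was read from the probe set annotated with its symbol alone; all 10 had exactly 1 such probe set. All 10 passed the filter on low values, which kept 12244 genes that exceeded the median of all deposited values (4.62, log2) in 4 or more of the 36 arrays. The study asked how precursors of different origin develop into alveolar macrophages, the phagocytes of the lung air spaces. Cells were placed in the airways of newborn Csf2rb-/- mice, which lack the shared beta chain of the receptor for GM-CSF, the growth factor that alveolar macrophages need. All donor and control cells were wild type and C57BL/6, and the CD45.1+CD45.2+ marker pair told donor cells from those of the recipient.

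There were 9 groups of 4 arrays. Of the precursors sorted before transfer, bone marrow monocytes and adult alveolar macrophages came from mice of 6 to 12 weeks, fetal liver monocytes from E15.5 embryos and yolk sac macrophages from E12.5 embryos. Descendants of each were sorted from lavage fluid 6 weeks after transfer and are named for their source (BM-derived for bone marrow, and likewise FL-derived, YS-derived and AM-derived). Untreated wild-type mice aged 6 weeks gave the age-matched alveolar macrophages. The tissues were taken apart in different ways. Yolk sac and fetal liver were digested with collagenase at 1 mg/ml and 37 °C. The protocol lists times of 30 and 5 minutes for these tissues. Reading them as belonging to yolk sac and fetal liver in that order is an assumption. Bones were crushed, and the 6 lavage groups were obtained by flushing the lungs, with no digestion. Handling and cell type changed together in the precursors, so they cannot be told apart in any comparison between tissues. Donor age changed with them between yolk sac, fetal liver and the adult tissues, and cannot be told apart there either. The part of handling in the levels was not tested. Nothing in the sources used here says how many mice were pooled per array.

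Immediate early genes are transcribed within minutes of a stimulus without the need for new protein. Growth factors, adhesion, mechanical strain and stress reach them through kinase cascades that act on stored factors such as serum response factor, its ternary complex partners and the CREB family. Egr1, Egr2 and Egr3 encode zinc finger factors, and Fos, Fosb, Jun, Junb and Atf3 encode bZIP proteins that pair to form AP-1 and related dimers. Nr4a1 encodes an orphan nuclear receptor, and Ier2 a small nuclear regulator. In macrophages these genes respond to colony-stimulating factors and to microbial signals, and enzymatic dissociation of tissue is known to induce them in many cell types.

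Array quality was even. Arrays of a group correlated with each other at a mean r of 0.963 to 0.982, and no pair of arrays was identical. The defining markers lay above the table median in the labelled cell types: all 8 measured alveolar macrophage markers in each of the 6 lavage groups, all 7 monocyte markers in both monocyte groups, and all 11 tissue and fetal macrophage markers in yolk sac macrophages. Some passed this low bar elsewhere too. In bone marrow monocytes 5 of 8 alveolar markers did, led by Chil3 at 12.25. So did 4 of 7 monocyte markers in yolk sac macrophages and 3 of 7 in each lavage group. Markers of other cells were present in the precursors. In the yolk sac arrays 4 of 6 erythroid genes were above the table median, and their summed level was 10.5 to 11.53 on the log2 scale, against at most 7.03 in any array of the other groups; the embryonic globin Hbb-y stood at 10.44, while Klf1 (3.76) and Alas2 (4.14) were under the median. Of 7 yolk sac endoderm and hepatocyte genes 4 were above it there, against 3 of 7 in every other group, with Afp at 6.93 and Alb at 3.60. Of 6 endothelial genes 1 was above it in yolk sac, Pecam1 at 4.94, and the same gene in bone marrow monocytes, at 4.805. Of 5 lymphoid genes 2 were above it in each monocyte group, against 1 in every other group. Nkg7 led them, at 6.58 in bone marrow and 5.60 in fetal liver. Of 8 neutrophil genes 6 were above the median in bone marrow and in fetal liver monocytes, with summed levels of 11.23 to 13.32 and of 12.11 to 12.92, and 1 in yolk sac macrophages, with summed levels of 6.93 to 7.23. The highest of them was Camp in bone marrow (10.99) and Prtn3 in fetal liver (10.99). Whether these markers came from other cells, and the part of such cells in the levels of the immediate early genes, was not tested. In such bulk samples fewer cells of a type and less RNA per cell cannot be told apart.

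Members that move together are often compared by the sites in their promoters, so the 250 bases before the transcript start were searched in the RefSeq promoters of mouse assembly GRCm38.p6, on both strands. The table held windows for Egr2 (5 transcript starts), Fos, Fosb, Jun, Junb, Atf3 and Nr4a1; Egr3 and Ier2 had no entry, and no sequence is given for Egr1. The sites searched were the CArG box bound by serum response factor (1.47% of 32851 promoters hold a match), the cyclic AMP response element TGACGTCA (1.55%) and its core TGACG (17.8%), the AP-1 site TGANTCA (6.75%), the EGR site GCGNGGGCG (4.7%) and the nuclear receptor site AAAGGTCA (1.34%). A match of the full element also counts as a match of its core. No window of these genes held the full element, the AP-1 site or the nuclear receptor site. Matches to the core were found before Egr2 (the same 2 in windows 3, 4 and 5), Fos (2), Fosb (1), Junb (1), Atf3 (1) and Nr4a1 (4). EGR matches were found before Fosb (1) and Nr4a1 (1). Within these 250 bases Egr2 was the only searched gene with a CArG match, which 4 of its 5 windows held. Its windows 3, 4 and 5 overlap and share 1 match. Each other searched gene had 1 window, and bases further upstream were not searched. The window of Jun held none of these letters. These are matches of letters and not measured binding. The promoters of Fos, Junb and Atf3 are shown whole, since all of their window lies before the gene, with the core matches in capitals; a match on the other strand reads as the reverse complement.
Fos, chr12:85473640-85473889, plus strand: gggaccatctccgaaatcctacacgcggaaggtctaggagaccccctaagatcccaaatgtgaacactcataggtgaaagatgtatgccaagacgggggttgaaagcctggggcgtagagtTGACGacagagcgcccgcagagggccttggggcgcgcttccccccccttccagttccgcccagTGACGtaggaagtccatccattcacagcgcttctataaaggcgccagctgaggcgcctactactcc
Junb, chr8:84978749-84978998, minus strand: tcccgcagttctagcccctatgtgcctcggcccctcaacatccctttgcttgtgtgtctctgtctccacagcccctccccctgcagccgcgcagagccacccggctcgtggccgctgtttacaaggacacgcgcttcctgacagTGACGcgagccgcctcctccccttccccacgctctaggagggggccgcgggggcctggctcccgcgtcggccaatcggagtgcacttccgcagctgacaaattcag
Atf3, chr1:191183334-191183583, minus strand: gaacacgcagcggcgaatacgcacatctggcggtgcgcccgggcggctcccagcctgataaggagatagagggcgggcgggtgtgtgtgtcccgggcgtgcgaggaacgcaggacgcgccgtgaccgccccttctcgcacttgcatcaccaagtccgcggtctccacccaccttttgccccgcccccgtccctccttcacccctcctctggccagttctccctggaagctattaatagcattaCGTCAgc
Around the CArG matches of Egr2 and the EGR matches of Fosb and Nr4a1, 30 bases are shown with the match in capitals.
Egr2, chr10:67537787-67537816, plus strand: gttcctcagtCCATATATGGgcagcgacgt
Egr2, chr10:67537484-67537513, plus strand: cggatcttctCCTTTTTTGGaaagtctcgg
Fosb, chr7:19310077-19310106, minus strand: gtgacgcaagcGCGGGGGCGggtcccggag
Nr4a1, chr15:101266775-101266804, plus strand: tgcgtcagtggCGCCCCCGCccctctccat

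Yolk sac macrophages held the highest mean of all 9 groups for each of the 10 genes. Egr2 departed from the others elsewhere: it was high in every lavage group and low in both monocyte groups, while none of the other 9 was called higher in adult alveolar or derived macrophages than in a precursor from another tissue with which they were compared. The span between the highest and the lowest group mean was 6.98 on the log2 scale for Egr1, 6.00 for Egr2, 4.67 for Fosb, 4.27 for Nr4a1 and 4.25 for Jun, and 0.99 for Egr3, the smallest. The median span over all genes tested was 0.74. A gene was called where the adjusted p of its difference was under 0.05 in a linear model over all 36 arrays (limma, Benjamini-Hochberg adjustment within each comparison); differences are log2 ± standard error with 4 arrays per group. Levels of different genes come from different probes and are not compared.

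**Figure D1:**
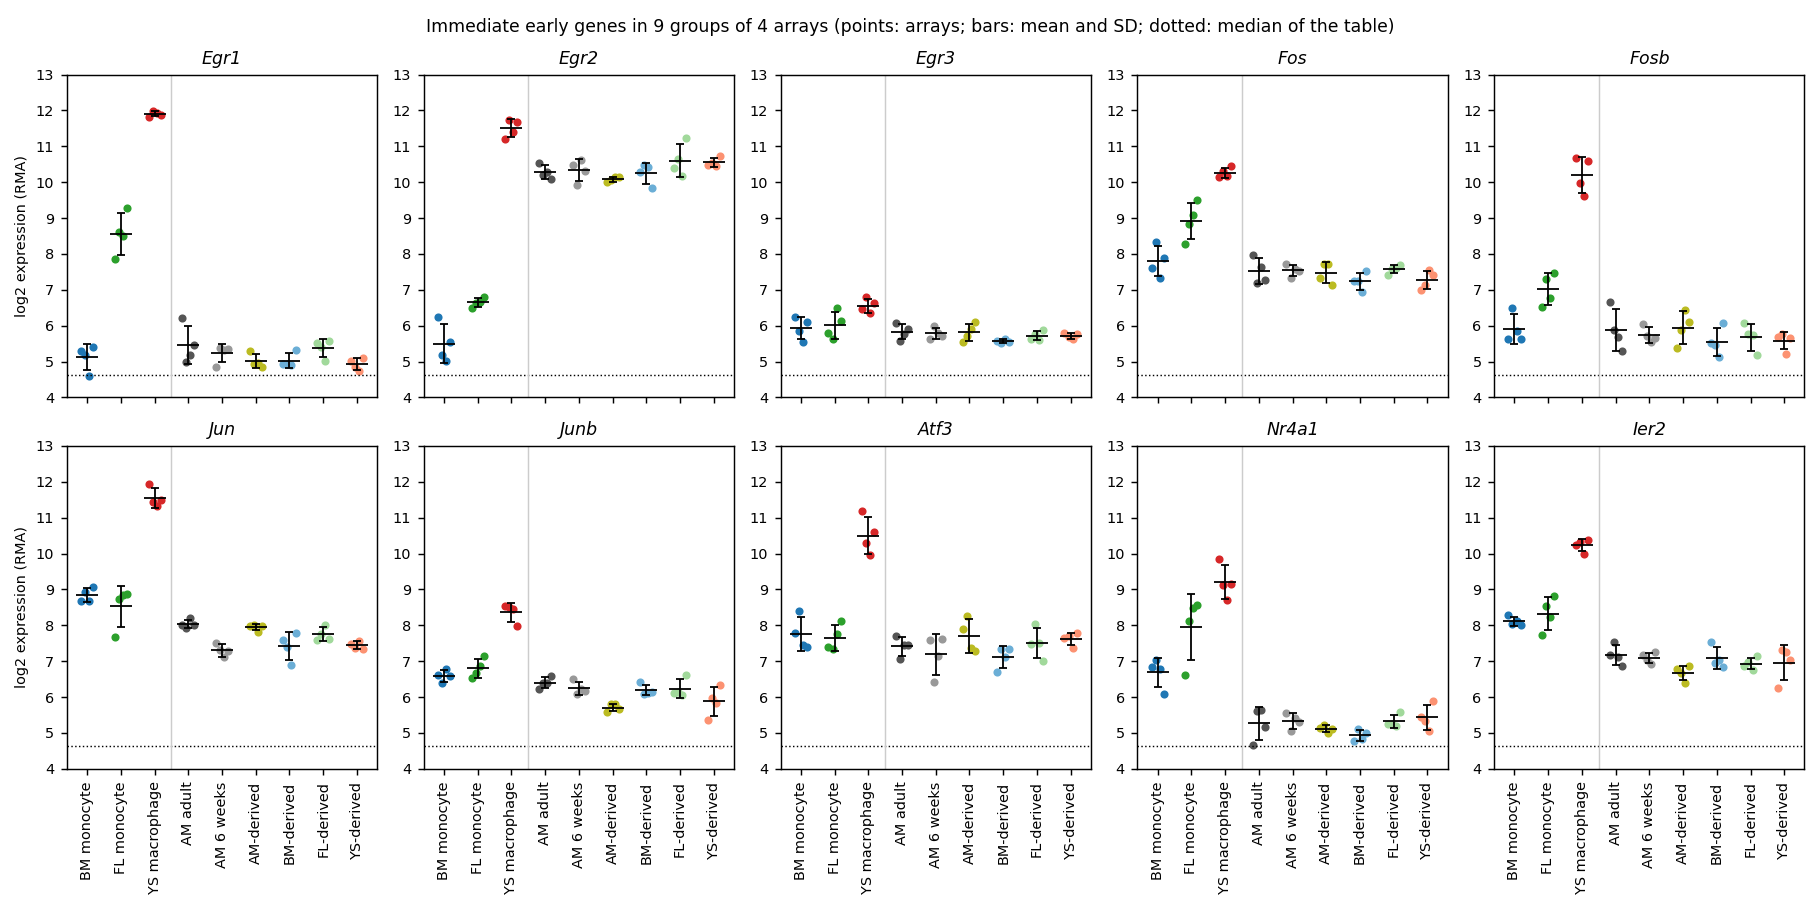
Log2 expression (y axis) of the 10 genes in the 9 groups (x axis), with a point per array, bars for the mean and SD of 4 arrays and a dotted line at the table median of 4.62. Yolk sac macrophages are the highest group in every panel, and Egr2 is the panel in which all lavage groups lie far above both monocyte groups.

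Among the precursors, all 10 genes were higher in yolk sac macrophages when set against bone marrow monocytes, where 24.1% of all genes tested were called higher and 18.1% lower, and also higher than in fetal liver monocytes, where these shares were 18.6% and 14.5%. Against bone marrow no member's arrays overlapped between the groups (21.6% of genes tested lay higher without overlap), and against fetal liver 9 members' did not (17.4%); Egr3 overlapped. The median difference of the members was 2.61 against bone marrow and 2.38 against fetal liver, beside -0.01 over all genes tested in each. Both comparisons share the yolk sac arrays. Fetal liver monocytes were higher than bone marrow monocytes for 5 members, Egr1, Egr2, Fos, Fosb and Nr4a1, and lower for 0 (10.6% of genes tested were called higher and 8.97% lower), and the arrays of 3 of these did not overlap (9.74%). The erythroid genes described above went with the yolk sac group throughout. Collagenase was used for yolk sac and fetal liver alike, and the time for each tissue rests on the assumed order given above.

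Egr1, a zinc finger factor that couples growth and adhesion signals to transcription, had the widest range. Its 4 arrays read 5.28, 5.18, 4.61 and 5.41 in bone marrow monocytes, 7.87, 8.60, 8.49 and 9.28 in fetal liver monocytes, and 11.83, 11.99, 11.93 and 11.88 in yolk sac macrophages. The groups formed 3 separate steps, with the yolk sac arrays within 0.16 of each other. Yolk sac exceeded bone marrow by 6.79 ± 0.22 (111-fold, adjusted p = 7.13e-23, limma) and fetal liver by 3.35 ± 0.22, and fetal liver exceeded bone marrow by 3.44 ± 0.22 (10.8-fold, adjusted p = 8.86e-14, limma). Bone marrow replicate 3 (4.61) lay just under the table median of 4.62. Dim values are compressed, so the folds against bone marrow are approximate.

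Egr2, a related factor known for roles in myeloid and Schwann cell differentiation, read 6.23, 5.20, 5.02 and 5.55 in bone marrow monocytes, 6.50, 6.63, 6.66 and 6.81 in fetal liver monocytes and 11.20, 11.73, 11.40 and 11.69 in yolk sac macrophages. The monocyte groups lay close together, without overlap, and the yolk sac group far above them. The difference was 6.00 ± 0.20 between yolk sac and bone marrow, 4.86 ± 0.20 between yolk sac and fetal liver and 1.15 ± 0.20 between fetal liver and bone marrow (adjusted p = 7.12e-05, limma). Egr3, the third zinc finger member, was nearly flat, at 5.55 to 6.25 in bone marrow, 5.64 to 6.48 in fetal liver and 6.35 to 6.79 in yolk sac. Its difference was 0.62 ± 0.15 against bone marrow and 0.55 ± 0.15 against fetal liver (adjusted p = 0.00506, limma), and the latter was not called after a second quantile normalisation (0.39, adjusted p = 0.0716).

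Fos and Fosb encode partners that must pair with a JUN protein to bind DNA. Fos read 7.62, 8.33, 7.34 and 7.89 in bone marrow monocytes, 8.28, 8.84, 9.09 and 9.49 in fetal liver monocytes, and 10.14, 10.31, 10.16 and 10.44 in yolk sac macrophages. The monocyte groups touched at their edges, and all yolk sac arrays were above both. Fosb read 5.62, 6.50, 5.86 and 5.62 in bone marrow, 6.52, 7.31, 6.77 and 7.46 in fetal liver, and 10.67, 9.98, 9.62 and 10.58 in yolk sac. The lowest fetal liver array of Fosb lay just above the highest bone marrow array. Yolk sac exceeded bone marrow by 2.47 ± 0.21 for Fos and by 4.31 ± 0.28 for Fosb, and fetal liver exceeded bone marrow by 1.13 ± 0.21 (Fos) and 1.11 ± 0.28 (Fosb, adjusted p = 0.0033, limma).

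Jun, Junb and Atf3, which complete or restrain AP-1 dimers, shared the yolk sac step but showed no called difference between the monocytes. Jun read 8.67, 8.94, 8.68 and 9.06 in bone marrow, 7.69, 8.73, 8.85 and 8.88 in fetal liver, and 11.94, 11.45, 11.33 and 11.48 in yolk sac. The yolk sac arrays stood far above all others, and 1 fetal liver array lay far below the rest of its group. Junb read 6.62, 6.39, 6.79 and 6.58 in bone marrow, 6.52, 6.68, 6.88 and 7.13 in fetal liver, and 8.53, 8.50, 8.46 and 7.97 in yolk sac. Atf3, a stress-induced repressor of inflammatory genes, read 7.78, 8.40, 7.45 and 7.40 in bone marrow, 7.39, 7.33, 7.76 and 8.12 in fetal liver, and 11.18, 10.29, 9.95 and 10.59 in yolk sac. For Junb and Atf3 the 2 monocyte groups overlapped widely and no yolk sac array reached them. Yolk sac exceeded bone marrow by 2.71 ± 0.19 for Jun, 1.77 ± 0.16 for Junb and 2.74 ± 0.27 for Atf3. Fetal liver minus bone marrow was -0.30 (95% interval -0.69 to 0.08) for Jun, 0.20 (-0.13 to 0.54) for Junb and -0.11 (-0.66 to 0.45) for Atf3.

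Nr4a1, a nuclear receptor needed by patrolling monocytes, read 6.85, 7.02, 6.79 and 6.09 in bone marrow, 6.62, 8.12, 8.50 and 8.57 in fetal liver, and 9.84, 9.13, 8.71 and 9.15 in yolk sac. One fetal liver array fell among the bone marrow arrays, and the other 3 lay above them. Fetal liver exceeded bone marrow by 1.26 ± 0.28 (adjusted p = 0.00129, limma), which was not called when only those 2 groups were fitted (adjusted p = 0.0511). Yolk sac exceeded fetal liver by 1.26 ± 0.28 and bone marrow by 2.52 ± 0.28. Ier2 read 8.28, 8.03, 8.12 and 8.0 in bone marrow, 7.73, 8.53, 8.23 and 8.80 in fetal liver, and 10.23, 10.32, 10.00 and 10.37 in yolk sac. Its monocyte groups overlapped, with a difference of 0.22 (95% interval -0.18 to 0.62), and yolk sac exceeded bone marrow by 2.12 ± 0.20.

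The members deviated together among the fetal liver monocyte arrays. Replicate 1 lay below the group mean for all 10 genes and was the lowest array for 8, and replicate 4 lay above it for all 10 and was the highest for 9. The same counts were not made over all genes tested, so whether this is particular to the members was not tested. The mean of the 10 genes was 7.09 in replicate 1, 7.64 in replicate 2, 7.77 in replicate 3 and 8.07 in replicate 4. In bone marrow monocytes the array means ran from 6.62 to 6.99 and in yolk sac macrophages from 9.79 to 10.20. Without fetal liver replicate 1 the same number of members, 5, was called against bone marrow, with Egr1 at 3.67, Nr4a1 at 1.71 and Fos at 1.34 (1.13 with it).

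**Figure D2:**
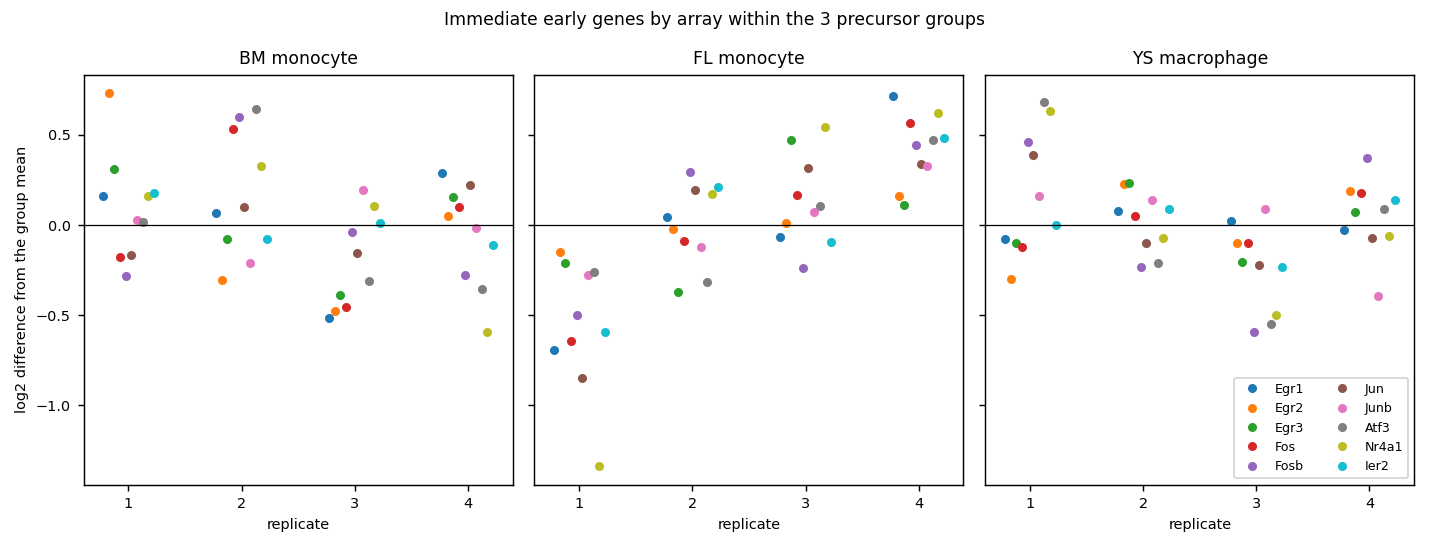
Difference of each gene from its group mean (y axis, log2) in the 4 replicates (x axis) of the 3 precursor groups, with a colour per gene. In fetal liver monocytes all 10 points of replicate 1 are below 0 and all 10 of replicate 4 above it, while the arrays of the other groups are mixed.

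The change from a precursor to its descendant differed in size between the sources. From yolk sac macrophages to YS-derived macrophages all 10 fell (23.2% of genes tested were called lower; without overlap 10 members against 22.2%). From fetal liver monocytes to FL-derived macrophages 8 changed, beside 38.3% of genes tested in either direction: 7 fell and Egr2 rose. From bone marrow monocytes to BM-derived macrophages 5 fell and Egr2 rose (16.1% lower and 20.3% higher). From adult alveolar macrophages to AM-derived macrophages 1 of 10 fell and 0 rose (0.302% lower and 0.400% higher). The median difference of the members was -3.13 for the yolk sac lineage, -1.06 for fetal liver, -0.48 for bone marrow and -0.12 for alveolar macrophages, beside -0.0021, -0.02, -0.02 and -0.01 over all genes tested. In the lavage arrays the summed neutrophil genes reached at most 10.04 and the summed erythroid genes at most 6.99, below the precursors that carried them, and 4 to 5 of 6 lung epithelial genes were above the table median against 3 of 6 in bone marrow, fetal liver and yolk sac precursors, with Cdh1 at 7.54 to 8.62 and Sftpc at 4.18 to 5.28; their part in the members' levels was not tested.

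**Figure D3:**
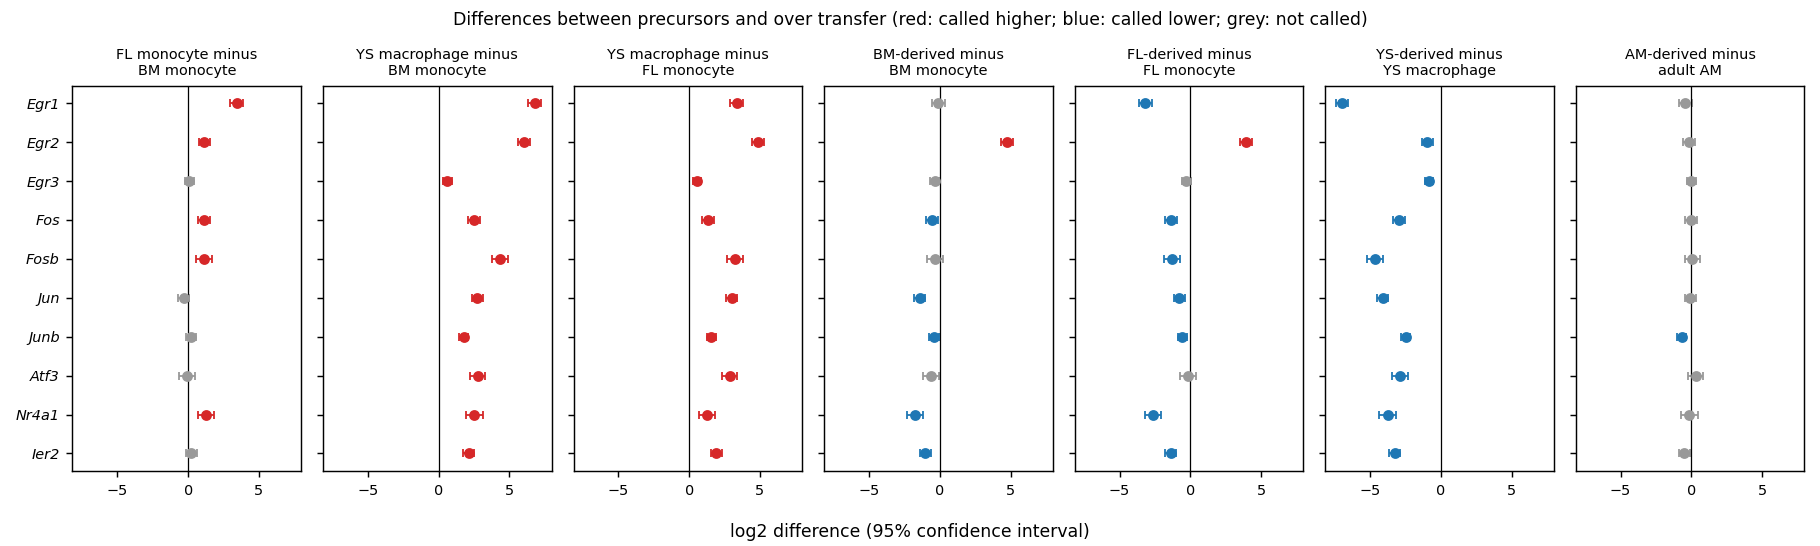
Log2 difference with its 95% confidence interval (x axis) of the 10 genes (y axis) between precursors and over transfer, 4 arrays per group, in red where called higher, blue where called lower and grey where not called. All 10 genes are red in both yolk sac panels and blue from yolk sac to YS-derived macrophages, and Egr2 alone is red in the BM-derived and FL-derived panels.

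Egr2 rose to a common level from both monocytes. BM-derived arrays read 10.28, 10.48, 10.41 and 9.83, FL-derived arrays 10.39, 10.64, 10.16 and 11.22, and YS-derived arrays 10.49, 10.53, 10.44 and 10.74. Adult alveolar macrophages read 10.53, 10.21, 10.28 and 10.08, those of 6 weeks 10.49, 9.92, 10.61 and 10.32, and AM-derived ones 10.00, 10.05, 10.13 and 10.15. All 24 lavage arrays thus lay between 9.83 and 11.22, above every monocyte array, and only the highest FL-derived array reached the lowest yolk sac array (11.20). The change was 4.75 ± 0.20 for bone marrow (adjusted p = 1.42e-19, limma), 3.96 ± 0.20 for fetal liver (adjusted p = 2.36e-17, limma) and -0.95 ± 0.20 for yolk sac (adjusted p = 0.000241, limma).

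**Figure D4:**
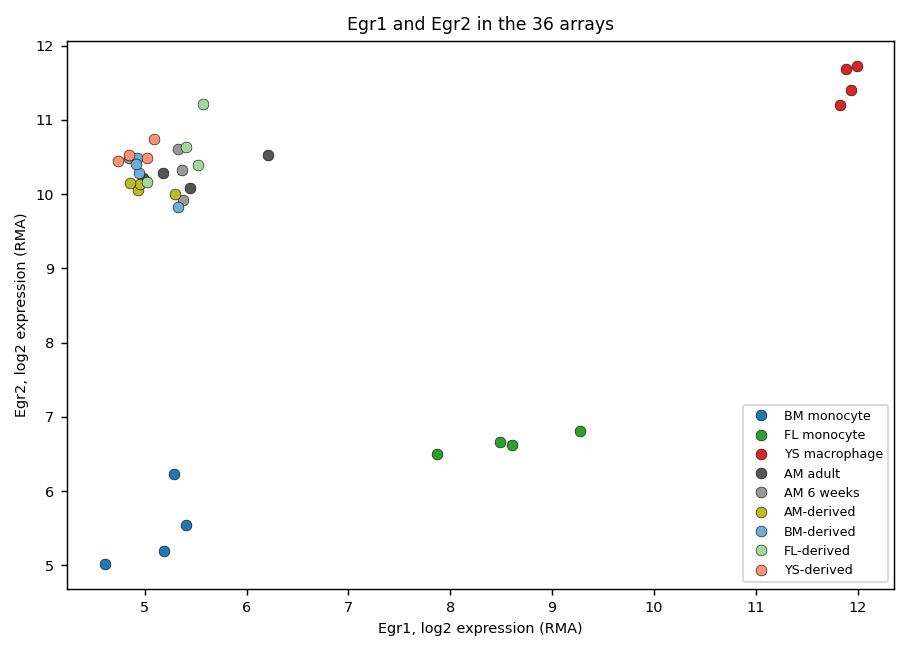
Egr1 (x axis) against Egr2 (y axis), both log2 expression, in the 36 arrays, with a colour per group. Bone marrow monocytes are low and yolk sac macrophages high for both. Fetal liver monocytes lie between them for both genes, and nearer to bone marrow for Egr2. All 24 lavage arrays carry Egr2 at 9.83 or more with Egr1 at 6.21 or less.

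Egr1 was low in all derived groups. FL-derived arrays read 5.52, 5.41, 5.03 and 5.57, YS-derived arrays 5.02, 4.85, 4.74 and 5.09, and BM-derived arrays 4.95, 4.92, 4.91 and 5.33. These values were close to those of bone marrow monocytes and to the table median of 4.62. The difference over transfer was -6.98 ± 0.22 in the yolk sac lineage, -3.18 ± 0.22 in the fetal liver lineage and -0.09 (95% interval -0.55 to 0.36) in the bone marrow lineage.

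Nr4a1 fell in all 3 lineages. It read 4.79, 5.12, 4.84 and 5.00 in BM-derived, 5.25, 5.25, 5.20 and 5.58 in FL-derived and 5.46, 5.33, 5.06 and 5.90 in YS-derived macrophages, below every array of the matching precursor. The differences were -1.75 ± 0.28, -2.63 ± 0.28 and -3.77 ± 0.28 in that order. Jun read 7.59, 7.39, 6.88 and 7.79 in BM-derived, 7.59, 7.77, 8.01 and 7.62 in FL-derived and 7.49, 7.35, 7.57 and 7.34 in YS-derived macrophages. Of these only the FL-derived arrays overlapped their precursor, through its replicate 1. The differences of Jun were -1.42 ± 0.19, -0.79 ± 0.19 and -4.11 ± 0.19. Ier2 also fell in each lineage, with differences of -1.02 ± 0.20, -1.39 ± 0.20 and -3.27 ± 0.20.

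Fos, Fosb, Junb and Atf3 fell in the yolk sac lineage, with differences of -2.99 ± 0.21, -4.63 ± 0.28, -2.48 ± 0.16 and -2.88 ± 0.27. In the fetal liver lineage Fos (-1.35 ± 0.21), Fosb (-1.33 ± 0.28) and Junb (-0.56 ± 0.16) were called lower, and Atf3 was at -0.15 (95% interval -0.71 to 0.40). In the bone marrow lineage Fos was at -0.56 ± 0.21 (adjusted p = 0.0329, limma) and Junb at -0.41 ± 0.16 (adjusted p = 0.0489, limma). These last calls were weak: Fos lost its call without bone marrow replicate 2 or 4 or BM-derived replicate 1, 2 or 3 (adjusted p up to 0.164; 8 alternative settings in all), and Junb without bone marrow replicate 1, 3 or 4 or BM-derived replicate 2, 3 or 4 (adjusted p up to 0.137; 10 settings in all). Fosb (-0.36), Atf3 (-0.64) and Egr3 (-0.37) were not called there, but Atf3 was called without bone marrow replicate 4 (-0.75), Egr3 without bone marrow replicate 3 (-0.50), and both after a second quantile normalisation. Egr3 fell by 0.84 ± 0.15 in the yolk sac lineage and was at -0.30 (95% interval -0.61 to 0.01) in the fetal liver lineage.

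The change over transfer was compared between lineages by an interaction term in the same fit. It was more negative for yolk sac than for bone marrow in 9 members (18.2% of genes tested were called lower) and than for fetal liver in 9 (13.5%), with Egr3 the member not called in either (-0.47, adjusted p = 0.0948, and -0.55, adjusted p = 0.0652, limma). Egr3 was called in 3 alternative settings of the former comparison, including without bone marrow replicate 1, and in 4 of the latter, including without fetal liver replicate 3 or yolk sac replicate 3 (adjusted p down to 0.0109). The first difference was -6.89 ± 0.32 for Egr1, -5.70 ± 0.29 for Egr2, -4.27 ± 0.39 for Fosb and -2.02 ± 0.40 for Nr4a1. Before transfer, yolk sac exceeded bone marrow by 6.79, 6.00, 4.31 and 2.52 for these genes. No member was called between BM-derived, FL-derived and YS-derived macrophages. The interaction terms therefore largely restate the precursor differences with the sign reversed, and carry the same confounding of handling, cell type and donor age. Against fetal liver, Nr4a1 differed by -1.14 ± 0.40 (adjusted p = 0.0374, limma) and lost its call without fetal liver replicate 1 (-0.69), yolk sac replicate 1 (-0.93), FL-derived replicate 4 (-1.05) or YS-derived replicate 1, 2 or 3 (adjusted p up to 0.113; 8 settings in all). Between fetal liver and bone marrow 1 member was called, Egr1 at -3.09 ± 0.32 (5.68% of genes tested were called lower). That count was 3 without fetal liver replicate 1, with Fos (-1.01) and Nr4a1 (-1.32) added, and 2 without bone marrow replicate 1 or 2, BM-derived replicate 4 or FL-derived replicate 4.

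Adult alveolar macrophages were also set against the precursors from other tissues. They were lower than yolk sac macrophages for all 10 members (22.7% of genes tested were called lower), called against fetal liver monocytes for 8 (38.4% in either direction; 7 lower and Egr2 higher), and lower than bone marrow monocytes for 3, Jun, Nr4a1 and Ier2, and higher for Egr2 (15.6% and 19.2%). Egr2 exceeded bone marrow by 4.78 ± 0.20 and Nr4a1 was at -1.42 ± 0.28. Against fetal liver, Jun (-0.50 ± 0.19, adjusted p = 0.0353, limma) and Junb (-0.40 ± 0.16, adjusted p = 0.0492, limma) were at the edge of the threshold. Jun lost its call without fetal liver replicate 2, 3 or 4 or adult replicate 1, 2 or 4 (adjusted p up to 0.149; 7 settings in all). Junb lost it without fetal liver replicate 3 or 4 or adult replicate 1, 2 or 3 (adjusted p up to 0.196; 10 settings in all). These comparisons share their adult arrays.

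Within the 6 lavage groups the group means of a member spanned at most 0.73, for Jun, followed by Junb (0.69) and Atf3 (0.58). The means of Jun ran from 7.30 to 8.04, of Junb from 5.71 to 6.40 and of Atf3 from 7.12 to 7.71. Those of Fos ran from 7.24 to 7.57, of Fosb from 5.54 to 5.95, of Egr1 from 4.92 to 5.46, of Nr4a1 from 4.94 to 5.44 and of Ier2 from 6.68 to 7.17. None of the 10 members was called between BM-derived, FL-derived, YS-derived or AM-derived macrophages and the age-matched alveolar macrophages, where 1.31%, 1.05%, 1.72% and 1.07% of genes tested were called. At an unadjusted p under 0.05 (limma) there were 0, 1, 1 and 3 members in those comparisons. None was called between FL-derived and BM-derived, YS-derived and BM-derived, or YS-derived and FL-derived macrophages (0.417%, 0.833% and 0.270% of genes tested), with 0, 0 and 2 at that unadjusted p. With so few calls among all genes, a count of 0 among 10 says nothing particular to the members. The age-matched and adult alveolar macrophages also gave 0 called members (0.0163% of genes tested) and 1 at the unadjusted p. The 95% intervals of all members in these comparisons lay between -1.12 and 1.08, so differences of up to about that size are not excluded by them.

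Among adult, AM-derived and age-matched alveolar macrophages, Jun, Junb and Ier2 were the members with groups that did not overlap. The share of all genes tested without overlap in these comparisons is not given here. Jun read 8.0, 7.92, 8.20 and 8.02 in adult alveolar macrophages, 7.97, 8.01, 7.82 and 7.99 in AM-derived ones and 7.52, 7.30, 7.11 and 7.28 in the age-matched ones. The age-matched arrays lay below all of the other 8. The difference was 0.65 ± 0.19 between AM-derived and age-matched cells (adjusted p = 0.119, limma) and -0.73 ± 0.19 between age-matched and adult cells (adjusted p = 0.661, limma), and neither was called. Junb read 6.21, 6.39, 6.41 and 6.59 in adult and 5.58, 5.79, 5.80 and 5.66 in AM-derived cells, without overlap. It was the member called between them, at -0.69 ± 0.16 (adjusted p = 0.0275, limma), and lost its call without adult replicate 2, 3 or 4 or AM-derived replicate 1, 2 or 4 (adjusted p up to 0.104; 7 settings in all). The AM-derived arrays of Junb also lay below all age-matched ones (-0.54 ± 0.16, adjusted p = 0.141, limma), which was not called. Ier2 read 6.79, 6.67, 6.40 and 6.86 in AM-derived cells. These lay below every adult array (lowest 6.865) and every age-matched array (lowest 6.925), and neither difference was called.

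Over the 9 group means, Pearson's r between members was 0.819 to 0.989 for the 36 pairs without Egr2, with a median of 0.938, and -0.235 to 0.248 for the 9 pairs with it. The yolk sac mean, the highest for every gene, is shared by all pairs. Over the 6 lavage means alone the median r of all 45 pairs was 0.229, with a range of -0.753 to 0.872 and 31 pairs above 0. With the group means removed, the median r over all 45 pairs was 0.267 across the 36 arrays, whose genes share the array and its RNA. Among the genes tested outside the members, those most like the mean profile of the 10 over the 9 groups were Nme4 (r = 0.997), Ednrb (0.995) and Fam118a (0.994), each highest in yolk sac macrophages. The genes most like Egr2 were Acp2 (0.993) and Dab2 (0.991), those most like Ier2 were Fem1b (0.998) and Nfkbiz (0.992), and those most like Egr1 were Igf2bp1 (0.996) and Umps (0.994).

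Genes that work with the members were read from lists compiled beside them, as counts. In yolk sac macrophages against bone marrow monocytes, 4 of 9 AP-1 and related bZIP partners tested were higher and 2 lower (median difference 0.18, beside -0.01 over all genes tested). Of all genes tested, 24.1% were called higher and 18.1% lower in that comparison. Maff, a small MAF protein that lacks an activation domain, was higher by 3.58 ± 0.16, and Fosl2, another FOS protein, was lower (-1.04 ± 0.13). Maff also rose over transfer from bone marrow (3.30 ± 0.16) and fetal liver (2.87 ± 0.16), with group means of 8.33 to 8.60 in the lavage groups, 8.62 in yolk sac, 5.04 in bone marrow and 5.45 in fetal liver. Fosl1 lay at 3.62 to 3.78 in every group, under the table median, and was not tested. Of 4 EGR and NR4A relatives and NAB corepressors tested, 2 were higher and 1 lower in yolk sac than in bone marrow (median 0.25). The shares over all genes tested were again 24.1% and 18.1%. Nab2, which binds EGR proteins and dampens them, was higher by 0.86 ± 0.15, and Nr4a2 was highest in fetal liver monocytes (mean 5.90, against 4.66 in bone marrow and 5.05 in yolk sac).

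Feedback and secreted early genes went with the members in yolk sac macrophages. Of 19 genes for feedback and mRNA decay 12 were higher and 2 lower than in bone marrow monocytes (median 1.04; 24.1% and 18.1% of all genes tested), among them Dusp2, a phosphatase of MAP kinases (3.92 ± 0.15), Zfp36l1, which destabilises AU-rich mRNAs (4.98 ± 0.20), and Tnfaip3, which restrains NF-kB (3.49 ± 0.18). Of 12 secreted or signalling genes 10 were higher and 2 lower (median 4.46), among them Ccn1, a matricellular protein (6.12 ± 0.15), the chemokines Ccl4 (5.84 ± 0.15) and Cxcl2 (7.91 ± 0.42), and Ptgs2, the inducible cyclooxygenase (4.56 ± 0.26). From yolk sac to YS-derived macrophages 14 of 19 feedback genes fell and 0 rose (median -1.21), and 10 of 12 secreted or signalling genes fell (median -3.21), where 23.2% of all genes tested were called lower. The other 2 rose, the kinase gene Sgk1 (3.98 ± 0.12) and the urokinase receptor gene Plaur (2.26 ± 0.18). In fetal liver against bone marrow monocytes 4 of 19 feedback genes were higher and 2 lower (median 0.05), and 4 of 12 secreted genes were higher and 1 lower (median 0.09), where 10.6% and 8.97% of all genes tested were. Ptgs2 was at 3.34 ± 0.26, Sgk1 at -1.19 ± 0.12 and Ccl3 at 2.48 ± 0.39.

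Heat shock genes, a separate response known to accompany tissue dissociation, were read in the same way. In yolk sac macrophages against bone marrow monocytes, 9 of the 10 tested were higher and 0 lower (median 1.20), beside 24.1% of all genes tested called higher. Against fetal liver 7 were higher and 0 lower (median 0.70), beside 18.6% of all genes tested called higher. Hspa1a, the inducible HSP70, was higher by 3.55 ± 0.50 against bone marrow and by 3.90 ± 0.50 against fetal liver. Between fetal liver and bone marrow monocytes 2 were higher, Hspd1 (0.91 ± 0.18) and Hsp90aa1 (1.04 ± 0.26), and 0 lower (median 0.15). There 10.6% of all genes tested were called higher and 8.97% lower. From yolk sac to YS-derived macrophages 9 of 10 fell (median -0.98), where 23.2% of all genes tested were called lower. In adult alveolar macrophages against bone marrow monocytes, 5 of 10 were higher and 0 lower (median 0.35), where 19.2% of all genes tested were called higher. The 4 genes with the lowest adjusted p from bone marrow monocytes to BM-derived macrophages went both ways. Hspd1 (1.03 ± 0.18), Hsph1 (1.06 ± 0.38) and Hsp90aa1 (0.68 ± 0.26) were higher, and Dnajb1 was lower (-0.70 ± 0.19). In that comparison 20.3% of all genes tested were called higher and 16.1% lower. From fetal liver monocytes to FL-derived macrophages Hspa1a alone of the 10 was called, higher by 1.82 ± 0.50. There 38.3% of all genes tested were called in either direction. The part of dissociation in these differences was not tested.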

How the data were processed

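The authors deposited 1 table of log2 expression values for 36 Affymetrix Mouse Gene 1.0 ST arrays, normalised with RMA per the submitters' processing notes, with the version not stated; RMA forces arrays to a common distribution, so a shift shared by most genes is removed and dim genes are compressed. Of 35556 probe sets, the 21789 with 1 gene symbol were used, keeping per gene the one with the highest mean. Symbols came from the platform annotation, updated by gene identifier for 21698. The 9 group means were estimated in 1 linear model over the 36 arrays (lmFit and eBayes of limma 3.58.1, R 4.3.3), for 18 differences between groups and 3 between changes over transfer. P-values were adjusted by Benjamini-Hochberg within each comparison over 12244 genes. The fit was tested on simulated data. Columns belonging to other series numbered 0. Plots used matplotlib 3.10.9.

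The members, the companion lists and the alternatives were chosen with earlier results of these data known. Named from each list were up to 4 genes with the lowest adjusted p per comparison, with Nr4a2 and Fosl1 added to account for their lists; the genes most alike were taken by Pearson's r over group means. Labels call the arrays of a group biological replicates; no label says that a replicate number is shared between groups, so numbers were not used as pairs. The number of arrays limits the precision. Alternatives are listed in the closing section.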

Additional observations from a re-analysis of the deposited data

Results flagged for a closer look

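Changes over transfer that differed between lineages by the interaction term are given as log2 differences of the changes. As no member was called between the derived groups compared, these values largely restate the precursor differences with the sign reversed. Yolk sac minus bone marrow was -6.89 for Egr1, -5.70 for Egr2, -2.43 for Fos, -4.27 for Fosb, -2.69 for Jun, -2.08 for Junb, -2.24 for Atf3, -2.02 for Nr4a1 and -2.25 for Ier2. Yolk sac minus fetal liver was -3.81 for Egr1, -4.91 for Egr2, -1.64 for Fos, -3.30 for Fosb, -3.32 for Jun, -1.92 for Junb, -2.73 for Atf3, -1.14 for Nr4a1 and -1.88 for Ier2. Fetal liver minus bone marrow was -3.09 for Egr1.

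A single array stood far from the other 3 of its group in 7 of 90 combinations of gene and group by Dixon's test, of which chance flags about 1 in 20. Egr1 was low in age-matched alveolar macrophages replicate 1 (4.85) and high in BM-derived replicate 4 (5.33). Jun was low in fetal liver monocytes replicate 1 (7.69). Junb was low in yolk sac macrophages replicate 4 (7.97), and high in BM-derived replicate 1 (6.41) and FL-derived replicate 4 (6.62). Nr4a1 was high in FL-derived replicate 4 (5.58).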

How the results depend on the processing

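Alternatives were the mean of all probe sets, no filter or a stricter one, only the groups compared, a trended robust prior, array weights, centring each array on its median, a second quantile normalisation, the replicate number as a block, and leaving out each array. No called difference changed sign. The tally covers the 109 differences of single genes with an unadjusted p under 0.05 (limma). Of their 2061 values, 1987 kept their side of the threshold, 52 lost a call and 22 gained one. The remaining differences, none of them called, gave 1749 values, of which 104 changed sign. With only the groups compared, the count for AM-derived against adult macrophages was 0 and for AM-derived against age-matched ones 1 (Jun). Leaving out 1 array gave 0 to 1 members for AM-derived against adult macrophages. For the change over transfer of fetal liver against bone marrow it gave 1 to 3, and array weights and centring gave 3 each; the causes were not tested. Spearman's rho in place of Pearson's r gave medians of 0.7 over group means and 0.149 over deviations. Centring moved the median of all genes by 0.102 in yolk sac against bone marrow and by -0.115 in its interaction. With the replicate block the members called were 7 instead of 8 for adult macrophages against fetal liver monocytes and 5 instead of 6 for BM-derived macrophages against bone marrow monocytes, and the other counts were equal. Deviations of same-numbered arrays correlated at a median of 0.004 over 144 pairs (range -0.377 to 0.419, 27 above 0.1). Between a source and its descendants they reached 0.212, 0.185, -0.0055 and 0.419 for alveolar macrophages and 0.0284, 0.127, 0.0573 and 0.114 for bone marrow, where every array matched its own number best, a hint from the data and not the design. Small differences of Egr1 and Nr4a1 in lavage cells, near the median of the table, are limited by signal over background.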

Other observations

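The other early response regulators moved in both directions. In yolk sac macrophages against bone marrow monocytes, 9 of 17 tested were higher and 5 lower (median 0.45, beside -0.01 over all genes tested, of which 24.1% were called higher and 18.1% lower). Csrnp1, a nuclear protein of the early response, was higher by 2.54 ± 0.13, Hes1, a Notch target, by 3.44 ± 0.22, and Klf6, a zinc finger factor, by 1.83 ± 0.12. Bhlhe40, a factor known to sustain alveolar macrophage proliferation, rose over transfer in all 3 lineages, by 4.32 ± 0.21 from bone marrow, 4.23 ± 0.21 from fetal liver and 4.36 ± 0.21 from yolk sac. Its group means were 8.54 to 8.95 in the lavage groups and 4.58 to 4.72 in the precursors from other tissues. Myc rose from bone marrow (2.51 ± 0.24) and fetal liver (1.70 ± 0.24).

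Of 12 upstream factors that act as stored protein, 4 were higher and 3 lower in the same comparison (median 0.16). Among all genes tested 24.1% were called higher and 18.1% lower. Srf, which binds the CArG box, was higher by 0.82 ± 0.17, and Mrtfa, its actin-regulated coactivator, was lower (-0.84 ± 0.14). Mef2c was higher by 2.52 ± 0.26 in yolk sac and fell over transfer in all 3 lineages, with differences of -1.49 ± 0.26, -2.67 ± 0.26 and -4.21 ± 0.26 from bone marrow, fetal liver and yolk sac. Mrtfb rose in the same lineages by 1.85 ± 0.23, 1.72 ± 0.23 and 1.31 ± 0.23.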
